A study of Mus musculus with 12 samples.

Results

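The genes described here are 10 genes whose transcripts are reported targets of the splicing factor SRSF1: MKNK2, RPS6KB1, BIN1, MST1R, CASP2, CASP9, RAC1, SLC39A14, CD44 and EXOC7. Each was found by its full name among the 58735 genes of the deposited table, and all 10 were present once. They were followed in 12 RNA-Seq libraries of U2OS, a human osteosarcoma cell line, in 4 groups of 3 replicates: untreated cells (blank), cells given the small interfering RNA siSRSF1-2 against SRSF1, cells given a second one, siSRSF1-3, and cells in which the long non-coding RNA LINC01134 was upregulated (OE-LINC01134). No age or genetic background beyond the cell line applied, and all groups shared that line. No library of cells given a control siRNA was analysed here, so the act of transfection and the loss of SRSF1 cannot be told apart. Nor was a control for OE-LINC01134 beyond the blank cells, so the means of upregulation and the gain of LINC01134 cannot be told apart either. The labels give mouse as the organism, whereas the table lists human Ensembl gene identifiers. Values are FPKM, fragments counted over a gene relative to its length and to the size of the library, so they measure the total RNA of a gene and do not resolve which exons it holds.

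SRSF1 is an SR protein that binds exonic enhancer sequences in pre-mRNA and helps the splicing machinery to recognise nearby splice sites. It also acts in nonsense-mediated decay, mRNA export and translation, and it can transform cells when overproduced. Its reported targets fall into several functions. MKNK2 and RPS6KB1 encode kinases that control translation, and their alternative isoforms differ in kinase activity or in effects on growth. CASP2 and CASP9 encode initiator caspases with long, death-promoting forms and short forms that oppose them. CD44 and MST1R encode surface receptors, RAC1 a small GTPase and EXOC7 an exocyst subunit, all with isoforms tied to adhesion or migration. BIN1 encodes a membrane-curving adaptor and tumour suppressor, and SLC39A14 a zinc and iron importer with mutually exclusive exons. A switch of exons need not alter total RNA, and only the total was measured here.

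The targeted gene was examined first. SRSF1 was at 35.9, 19.8 and 20.5 FPKM in blank replicates 1 to 3, at 7.09, 7.46 and 7.41 FPKM with siSRSF1-2, and at 3.33, 6.81 and 7.90 FPKM with siSRSF1-3. All 6 siRNA libraries lay below all 3 blank libraries. In limma fits of log2(FPKM + 0.1) across the 17538 genes with a mean of at least 0.5 FPKM, the log2 fold change of SRSF1 was −1.72 (SE 0.23, adjusted p 0.00500) with siSRSF1-2 and −2.09 (SE 0.38, adjusted p 0.0518) with siSRSF1-3. An exact two-sided permutation test gave p 0.1 for each, the smallest that 3 against 3 libraries allow. Without siSRSF1-3 replicate 3, the limma value for siSRSF1-3 was −2.33 with an adjusted p of 0.0140, within a range of 1.37e-05 to 0.223 over its alternatives. SRSF1 was at 31.8, 29.6 and 30.3 FPKM in OE-LINC01134, inside the range of the blank libraries, with a log2 fold change of 0.32 (SE 0.23, limma adjusted p 0.405). Without blank replicate 1 that value was 0.60, with a limma adjusted p of 0.0142. LINC01134 itself was at 878 to 1279 FPKM in the OE-LINC01134 libraries and at 0.497 to 1.11 FPKM in the other 9 libraries.

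The libraries held 26237763 to 32954539 reads on genes. Replicates were unevenly alike. In reads per gene, blank replicates 2 and 3, all 3 siSRSF1-2 replicates and OE-LINC01134 replicates 1 and 3 differed by a chi-square per degree of freedom of only 2.23 to 3.46, where sampling noise alone gives 1, against 78.9 to 520 for the remaining pairs of one group. They differed by more than sampling noise and were kept as separate libraries, but the small spread within siSRSF1-2 bears on each test below. The labels do not say that the replicates came from separate cultures. The methods of the study give 2 biological replicates per condition, fewer than there are libraries, while a figure legend of the study speaks of 3 experimental repeats. The p-values therefore measure the spread between these libraries, which may be technical. The mesenchymal markers VIM (68.7 to 248 FPKM), SPARC (36.0 to 111) and COL1A1 (14.1 to 39.7) were present in every library and RUNX2 was at 1.55 to 3.92 FPKM, whereas COL1A2 and TWIST1 did not exceed 0.0131 and 0.190 FPKM. Of other cell types, EPCAM was at 0.918 to 2.43 FPKM, the leukocyte marker PTPRC did not exceed 0.0559 FPKM and the haemoglobin gene HBB was at 5.93 to 50.9 FPKM.

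In the blank cells, RAC1 stood far above the other targets at 147 ± 13.0 FPKM (mean ± SD, n = 3). It was followed by CD44 at 31.2 ± 4.33, SLC39A14 at 22.2 ± 0.184, BIN1 at 16.0 ± 3.00, MKNK2 at 10.7 ± 1.15, EXOC7 at 7.45 ± 1.24, RPS6KB1 at 6.90 ± 0.987, CASP9 at 3.00 ± 0.304 and CASP2 at 2.51 ± 1.02 FPKM. MST1R was last at 0.0772 ± 0.0351 FPKM. The libraries of EXOC7 and RPS6KB1 overlapped, as did those of CASP9 and CASP2, and all other neighbours in this order were separated. Over all 12 libraries RAC1 had a higher mean than 99.0% of the tested genes, and the other tested targets lay between CASP2 (above 35.0%) and SLC39A14 (above 88.1%). MST1R had 4 to 16 reads per library, did not reach the filter and was not tested, which left 9 of the 10 targets.

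**Figure D1:**
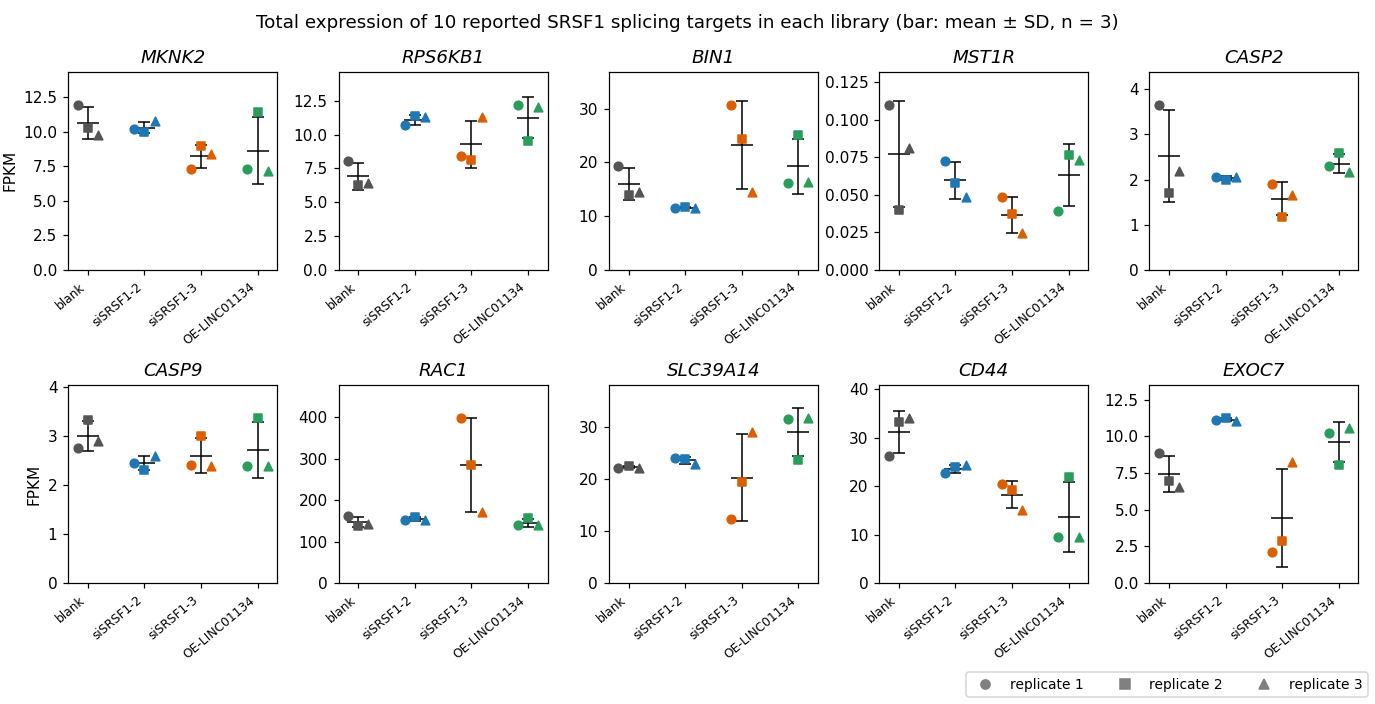
FPKM (y axis, from 0) of the 10 targets in each library (points, with the replicate given by shape) of the 4 groups (x axis); bars give the mean ± SD (n = 3). The 3 siSRSF1-2 libraries sit close together in every tested target, while the siSRSF1-3 libraries are spread in RAC1, BIN1, SLC39A14 and EXOC7, and OE-LINC01134 replicate 2 stands apart in CD44.

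With siSRSF1-2, RPS6KB1 and EXOC7 rose and CD44 fell relative to blank cells, and these 3 of the 9 tested targets passed an adjusted p of 0.05 (Benjamini-Hochberg over all tested genes). In this comparison 26.8% of all tested genes passed, 14.0% higher and 12.8% lower, so 3 of 9 was near the background. None of the 9 also passed the study's limit of an absolute log2 fold change over 1, which 4.95% of all tested genes did, and 5 were under an unadjusted p of 0.05 (background 40.3%). For 6 of the 9 the siSRSF1-2 and blank libraries did not overlap, where 49.5% of all tested genes did not. The median log2 fold change of the 9 targets was −0.04, with a median size of 0.27, beside 0.02 and 0.32 over all tested genes. Where near-identical libraries were averaged, leaving a single siSRSF1-2 value, 0 of all tested genes passed, and the adjusted p of the 3 targets lay between 0.808 and 0.879.

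With siSRSF1-3, no target passed the adjusted test, which 1.28% of all tested genes did. At an unadjusted p under 0.05 there were 2, CD44 and RAC1 (background 28.8%). The libraries did not overlap with blank for 4 of 9, MKNK2, RPS6KB1, RAC1 and CD44 (background 37.2%). The median log2 fold change of the targets was −0.22 with a median size of 0.48, beside −0.01 and 0.51 over all tested genes. Without siSRSF1-3 replicate 3, 4 targets passed (BIN1, RAC1, CD44 and EXOC7), and 35.9% of all tested genes did. With limma's voom on the reads recovered from the FPKM, 0 targets and 3.79% of all tested genes passed, and with library weights 8 targets and 76.7% of all tested genes did.

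With OE-LINC01134, again no target passed (background 1.18%). CD44, RPS6KB1 and SLC39A14 were under an unadjusted p of 0.05, a limit that 26.3% of all tested genes met, and these 3 were also the targets without overlap with blank (background 30.6%). The median log2 fold change of the targets was −0.02 with a median size of 0.33, beside 0.05 and 0.31 over all tested genes. Without OE-LINC01134 replicate 2, 4 targets passed (MKNK2, RPS6KB1, SLC39A14 and CD44), and 25.5% of all tested genes did. By voom 0 targets and 3.21% of all tested genes passed, and with library weights 7 targets and 66.2% did. All 3 comparisons share the same blank libraries, so similar values between them are not independent.

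**Figure D2:**
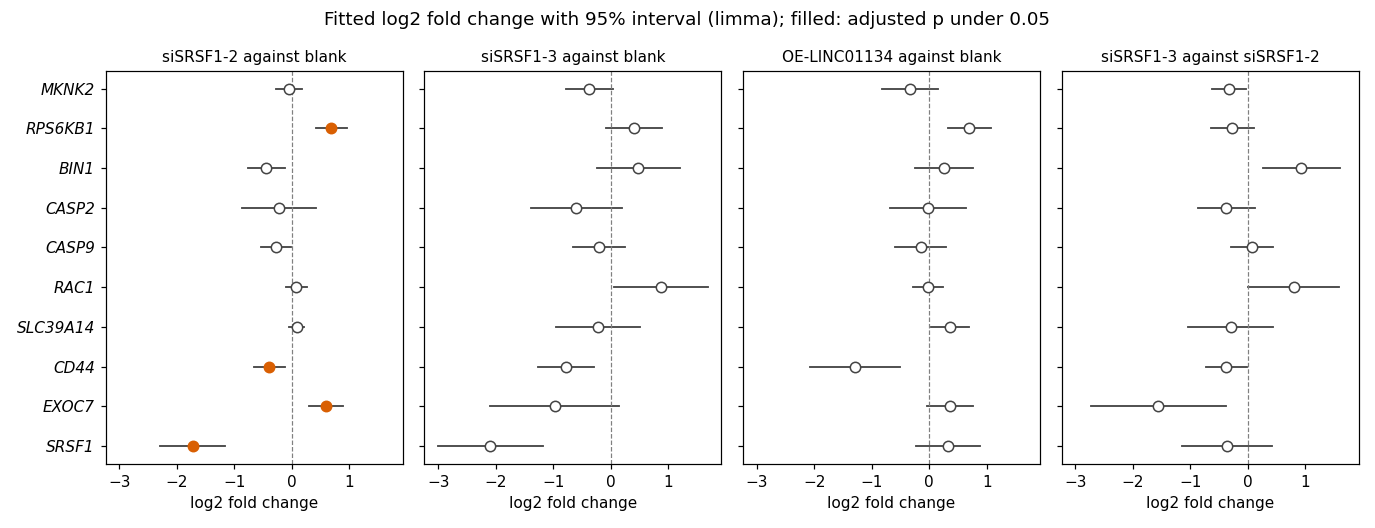
Log2 fold change on the log2(FPKM + 0.1) scale (x axis) of the 9 tested targets and SRSF1 (y axis) in the 4 comparisons (panels), with 95% intervals from limma; filled points passed an adjusted p of 0.05. Only RPS6KB1, CD44, EXOC7 and SRSF1 with siSRSF1-2 are filled, and the interval of EXOC7 is the widest in both panels with siSRSF1-3.

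RPS6KB1 (ENSG00000108443, chromosome 17, 59893046 to 59950564, plus strand, in the table's coordinates, whose build is not given in the sources used here) encodes S6 kinase 1, which mTORC1 activates to raise translation. It was at 8.04, 6.24 and 6.44 FPKM in the blank libraries and at 10.7, 11.3 and 11.3 FPKM with siSRSF1-2. It was at 8.44, 8.10 and 11.3 FPKM with siSRSF1-3 and at 12.2, 9.49 and 12.1 FPKM with OE-LINC01134. All 9 libraries of the 3 treated groups lay above all 3 blank libraries, the lowest by a narrow margin of 8.10 against 8.04 FPKM, and at equal FPKM sums the siSRSF1-3 log2 fold change turned to −0.03. The log2 fold change was 0.69 (SE 0.11, limma adjusted p 0.00834) with siSRSF1-2. It passed after each single library was left out, at 0.62 to 0.80. With siSRSF1-3 the value was 0.41 (SE 0.20, limma adjusted p 0.216) and with OE-LINC01134 it was 0.70 (SE 0.16, limma adjusted p 0.0749). The OE-LINC01134 value passed without blank replicate 1 (0.81, limma adjusted p 0.0268) and without OE-LINC01134 replicate 2 (0.81, limma adjusted p 0.0169), within a range of 3.74e-05 to 0.9998 over its alternatives.

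MKNK2 (ENSG00000099875, chromosome 19, 2037465 to 2051244, minus strand) encodes a MAP kinase-interacting kinase that phosphorylates the cap-binding factor eIF4E. It was at 11.95, 10.3 and 9.77 FPKM in blank and at 10.2, 9.97 and 10.8 FPKM with siSRSF1-2, which overlapped. It was at 7.32, 8.94 and 8.40 FPKM with siSRSF1-3, all below the blank libraries, and at 7.30, 11.5 and 7.14 FPKM with OE-LINC01134, where only replicate 2 lay among them. The log2 fold changes were −0.04 (SE 0.09), −0.37 (SE 0.17) and −0.33 (SE 0.21), with limma adjusted p of 0.758, 0.198 and 0.340. The first changed sign with the scaling of the libraries, to 0.09 at equal FPKM sums. Without OE-LINC01134 replicate 2 the last was −0.55 with a limma adjusted p of 0.0276, within 0.000955 to 0.9998 over its alternatives.

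The caspases were low and varied mostly in single libraries. CASP2 (ENSG00000106144, chromosome 7, 143288215 to 143307696, plus strand), an initiator caspase, was at 3.65, 1.70 and 2.18 FPKM in blank and at 2.05, 1.99 and 2.06 FPKM with siSRSF1-2. It was at 1.90, 1.17 and 1.65 FPKM with siSRSF1-3 and at 2.30, 2.58 and 2.18 FPKM with OE-LINC01134. The highest value was that of blank replicate 1, and every treated group overlapped with blank. The log2 fold changes were −0.22 (SE 0.27) with siSRSF1-2, −0.60 (SE 0.33) with siSRSF1-3 and −0.03 (SE 0.28) with OE-LINC01134, with limma adjusted p of 0.569, 0.258 and 0.962. Without blank replicate 1 the first and last were 0.07 and 0.27.

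CASP9 (ENSG00000132906, chromosome 1, 15490832 to 15526534, minus strand) encodes the caspase that the apoptosome activates. It was at 2.76, 3.34 and 2.90 FPKM in blank and at 2.46, 2.31 and 2.60 FPKM with siSRSF1-2, all below blank. It was at 2.41, 3.01 and 2.39 FPKM with siSRSF1-3 and at 2.38, 3.37 and 2.39 FPKM with OE-LINC01134, so that replicate 2 lay within the blank range with siSRSF1-3 and just above it with OE-LINC01134, while the other replicates lay below it. The log2 fold changes were −0.27 (SE 0.11), −0.20 (SE 0.19) and −0.15 (SE 0.18), with limma adjusted p of 0.108, 0.495 and 0.623. The siSRSF1-2 value passed without blank replicate 1 (−0.33, limma adjusted p 0.0281), within 0.0178 to 0.9999 over its alternatives.

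CD44 was the target that lay below blank in every treated library. CD44 (ENSG00000026508, chromosome 11, 35138870 to 35232402, plus strand) encodes the hyaluronan receptor. It was at 26.2, 33.3 and 34.0 FPKM in blank and at 22.6, 23.8 and 24.3 FPKM with siSRSF1-2. It was at 20.4, 19.2 and 15.1 FPKM with siSRSF1-3 and at 9.50, 21.9 and 9.53 FPKM with OE-LINC01134. The log2 fold change was −0.39 (SE 0.11, limma adjusted p 0.0472) with siSRSF1-2, near the threshold. That call was kept without blank replicate 1 (−0.51) and lost without any other single library of the 6, at −0.32 to −0.41 with limma adjusted p of 0.122 to 0.150. With siSRSF1-3 the value was −0.77 (SE 0.20, limma adjusted p 0.0893), and −0.64 with a limma adjusted p of 0.0363 without replicate 3, within 1.77e-05 to 0.284 over its alternatives. With OE-LINC01134 it was −1.29 (SE 0.33, limma adjusted p 0.0879), and −1.69 with a limma adjusted p of 0.00521 without replicate 2, within 3.05e-05 to 0.9998. The OE-LINC01134 value was larger in size than that of 94.5% of all tested genes in that comparison.

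MST1R (ENSG00000164078, chromosome 3, 49887002 to 49903873, minus strand) encodes RON, the receptor of macrophage-stimulating protein, and was barely detected. It had 16, 6 and 14 reads in the blank libraries, 11, 9 and 9 with siSRSF1-2, 5, 5 and 4 with siSRSF1-3 and 6, 11 and 11 with OE-LINC01134. These counts correspond to 0.0244 to 0.110 FPKM, and 3 reads to 0.0161 to 0.0291 FPKM. The siSRSF1-3 counts were the lowest, though the ranges in FPKM of siSRSF1-3 and blank overlapped. In a fit with no filter on low values, limma adjusted p lay between 0.410 and 1 in the 4 comparisons, so no difference was detectable at this depth.

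RAC1 and EXOC7, 2 genes of actin remodelling and membrane delivery at the leading edge, differed widely between the siSRSF1-3 libraries, by 2.33-fold and 3.87-fold from the lowest to the highest. SLC39A14 and BIN1 also did, by 2.36-fold and 2.12-fold. RAC1 (ENSG00000136238, chromosome 7, 6374523 to 6403977, plus strand) encodes a small GTPase that drives actin assembly. It was at 162, 137 and 143 FPKM in blank, at 152, 159 and 153 FPKM with siSRSF1-2 and at 140, 157 and 139 FPKM with OE-LINC01134, all within a common range. With siSRSF1-3 it was at 398, 284 and 171 FPKM, each above every other library. The log2 fold change with siSRSF1-3 was 0.87 (SE 0.35, limma adjusted p 0.158), and 1.19 with a limma adjusted p of 0.0152 without replicate 3, within 2.31e-05 to 0.511 over its alternatives. With siSRSF1-2 it was 0.07 (95% interval −0.11 to 0.26) and with OE-LINC01134 −0.02 (−0.28 to 0.24), the last above 0 in 5 of its 22 alternatives. Without blank replicate 1 the siSRSF1-2 value was 0.14 and passed (limma adjusted p 0.0168).

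EXOC7 (ENSG00000182473, chromosome 17, 76081017 to 76121576, minus strand) encodes the exocyst subunit that anchors the complex at the plasma membrane. It was at 8.86, 6.97 and 6.52 FPKM in blank and at 11.1, 11.2 and 11.1 FPKM with siSRSF1-2, all above blank. With siSRSF1-3 it was at 2.14, 2.85 and 8.28 FPKM, so that replicates 1 and 2 lay below every other library and replicate 3 among the blank ones. With OE-LINC01134 it was at 10.2, 8.07 and 10.6 FPKM. The log2 fold change was 0.59 (SE 0.12, limma adjusted p 0.0178) with siSRSF1-2. That call was lost without blank replicate 2 or without any of the siSRSF1-2 libraries, with values of 0.54 to 0.59 and limma adjusted p of 0.0568 to 0.0749. It was kept without blank replicate 1 (0.71) and without blank replicate 3 (0.50). With siSRSF1-3 the value was −0.97 (SE 0.48, limma adjusted p 0.211), and −1.54 with a limma adjusted p of 0.0117 without replicate 3, within 3.49e-05 to 0.594 over its alternatives. With OE-LINC01134 it was 0.37 (SE 0.17, limma adjusted p 0.224).

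BIN1 (ENSG00000136717, chromosome 2, 127048027 to 127107355, minus strand) encodes bridging integrator 1, a BAR-domain protein that binds MYC. It was at 19.4, 14.01 and 14.4 FPKM in blank and at 11.5, 11.6 and 11.6 FPKM with siSRSF1-2, all below blank. It was at 30.7, 24.3 and 14.5 FPKM with siSRSF1-3 and at 16.3, 25.1 and 16.4 FPKM with OE-LINC01134. Replicates 1 and 2 of siSRSF1-3 and replicate 2 of OE-LINC01134 exceeded all blank libraries, and the others lay within them. The log2 fold change with siSRSF1-2 was −0.44 (SE 0.13, limma adjusted p 0.0527), and −0.29 with a limma adjusted p of 0.000919 without blank replicate 1, within 0.000919 to 0.9999 over its alternatives. With siSRSF1-3 it was 0.48 (SE 0.31, limma adjusted p 0.310), and 0.79 with a limma adjusted p of 0.0354 without replicate 3. With OE-LINC01134 it was 0.25 (SE 0.21, limma adjusted p 0.474).

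SLC39A14 (ENSG00000104635, chromosome 8, 22367249 to 22434129, plus strand) encodes ZIP14, which carries zinc, iron and manganese into cells. It was at 22.1, 22.4 and 22.1 FPKM in blank and at 24.1, 23.8 and 22.9 FPKM with siSRSF1-2. These groups did not overlap, yet their means differed by a log2 fold change of 0.08 (SE 0.05, limma adjusted p 0.281). It was at 12.3, 19.4 and 29.1 FPKM with siSRSF1-3, on both sides of blank, and at 31.6, 23.6 and 31.7 FPKM with OE-LINC01134, all above blank. The log2 fold changes were −0.22 (SE 0.31, limma adjusted p 0.647) and 0.37 (SE 0.14, limma adjusted p 0.160). The former was 0.10 without siSRSF1-3 replicate 1, and the latter was 0.51 without OE-LINC01134 replicate 2, with a limma adjusted p of 0.0109 within 0.000111 to 0.9998.

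The libraries given siSRSF1-3 were compared with those given siSRSF1-2, to ask whether both siRNAs against SRSF1 moved its targets alike. No target passed, where 0.0855% of all tested genes did, and 5 were under an unadjusted p of 0.05 (EXOC7, BIN1, MKNK2, CD44 and RAC1) against a background of 42.1%. The groups did not overlap for 6 of 9 targets (background 54.6%). EXOC7 differed by −1.56 (SE 0.48, limma adjusted p 0.0851), BIN1 by 0.93 (SE 0.28, limma adjusted p 0.0846) and RAC1 by 0.80 (SE 0.32, limma adjusted p 0.117) on the log2 scale. MKNK2 and CD44 differed by −0.33 and −0.38. Without siSRSF1-3 replicate 3, 7 targets passed, all but the caspases, as did 61.2% of all tested genes, and EXOC7, BIN1 and RAC1 then differed by −2.13, 1.23 and 1.12. For the remaining targets the 95% intervals were −0.65 to 0.10 for RPS6KB1, −0.87 to 0.12 for CASP2, −0.29 to 0.44 for CASP9 and −1.05 to 0.44 for SLC39A14. By voom 0 targets and 0.77% of all tested genes passed, and with library weights 9 targets and 86.2% did.

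Gene length moved with the values most strongly in siSRSF1-3 replicates 1 and 2. The tested genes were divided into 5 length classes. In genes of 984 to 2818 bases the median log2 difference from the blank mean was 0.51 in replicate 1 and 0.40 in replicate 2, and in the longest class, over 7117 bases, it was −0.38 and −0.32. In replicate 3 these medians were 0.06 and 0.02. The targets were mostly long: RAC1 had 3114 bases of annotated gene length, and the others 5221 (MKNK2) to 10086 (EXOC7). EXOC7 differed from the blank mean by −1.74 in replicate 1 and −1.34 in replicate 2, and by 0.16 in replicate 3. RAC1 differed by 1.44, 0.95 and 0.22, where the medians of its class were 0.08, 0.12 and 0.01. BIN1, at 6929 bases, differed by 0.96, 0.62 and −0.13, where its class had −0.14, −0.10 and 0.01. CD44 differed by −0.60, −0.68 and −1.03 and was thus lowest in replicate 3, in which the length medians were near 0. Once a smooth trend on length was removed from each library, the siSRSF1-3 values against blank were −0.72 for EXOC7, 0.77 for RAC1, 0.64 for BIN1 and −0.52 for CD44, with limma adjusted p between 0.156 and 0.255, and no target passed. The scaling of the libraries also bears on this group: the sum of FPKM was 611084 in replicate 1 and 410612 in replicate 2, beside 281051 to 324607 in the other 10 libraries. At equal sums the median log2 fold change of all tested genes with siSRSF1-3 moved from −0.01 to −0.43, and RAC1, BIN1, CD44 and EXOC7 were at 0.42, 0.04, −1.21 and −1.40. The siSRSF1-2 libraries showed a smaller shift, with −0.10 to −0.08 in genes of 984 to 2818 bases and 0.13 to 0.15 in the longest class. That class held RPS6KB1 and EXOC7, at 0.63 to 0.72 and 0.58 to 0.60 in these libraries. It was also at 0.14 and 0.15 in OE-LINC01134 replicates 1 and 3. In no comparison did removal of the length trend lose the call of a target.

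**Figure D3:**
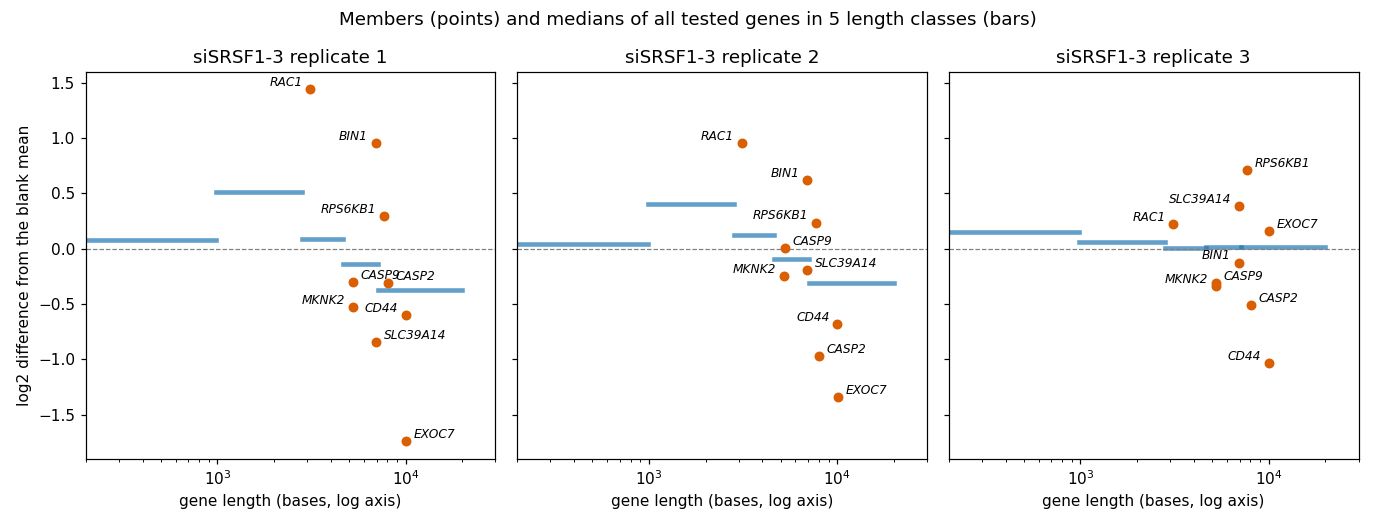
Log2 difference from the blank mean (y axis) against annotated gene length (x axis, log scale) in the 3 siSRSF1-3 libraries (panels); points are the 9 tested targets and bars the medians of all tested genes in 5 length classes. In replicates 1 and 2 the bars fall from 0.51 and 0.40 to −0.38 and −0.32 over the upper 4 classes, with RAC1 and BIN1 above and EXOC7 below the bar of its class, while the bars of replicate 3 are near 0 for all but the shortest genes (0.15).

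Several targets share their position or sequence with other annotated genes, and the sources used here do not state whether strand was used in counting. Of the overlapping or pseudogene entries of the targets, 4 had a mean of at least 0.5 FPKM. The transcript ENSG00000279382 opposite EXOC7 was at 3.84 to 5.54 FPKM in blank, 7.21 to 9.01 with siSRSF1-2 and 6.05 to 8.07 with OE-LINC01134. With siSRSF1-3 it was at 0.562, 0.664 and 7.63 FPKM, low in replicates 1 and 2 as EXOC7 was. CD44 antisense RNA 1 (ENSG00000255443) was at 1.23 to 1.62 FPKM in blank and 1.10 to 1.44 with siSRSF1-2. It was at 0, 0.603 and 0.929 FPKM with siSRSF1-3 and at 0.353, 0.686 and 0.298 FPKM with OE-LINC01134, and these 6 libraries and siSRSF1-2 replicate 3 lay below all blank libraries. A second transcript within CD44 (ENSG00000251194) was at 1.10 to 1.56 FPKM in blank and 1.04 to 1.64 with siSRSF1-2, against 0.145 to 0.638 with siSRSF1-3 and 0.156 to 0.294 with OE-LINC01134. RAC1 pseudogene 2 (ENSG00000249936) was at 2.43 to 3.38 FPKM in blank and at 6.78, 5.64 and 5.21 FPKM with siSRSF1-3. Reads of a gene and such a partner may be shared, and this was not tested.

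Over the 12 libraries, the targets did not follow a common pattern. As a description, Pearson's r of log2 values ranged from −0.905 (RAC1 and EXOC7) to 0.811 (SLC39A14 and EXOC7) among the 36 pairs, and the libraries share groups and the siSRSF1-3 outlying values. RAC1 and BIN1 had an r of 0.720, and MKNK2 and CD44 one of 0.756, while CASP2 and CASP9 had −0.0331. Among all genes with a mean of at least 1 FPKM, the closest to EXOC7 were the nuclease gene FANCD2 and FANCI associated nuclease 1 (r 0.995) and nuclear export mediator factor (0.994). The closest to RAC1 were tissue specific transplantation antigen P35B (0.990) and PNMA family member 6A (0.990). Those closest to CD44 were PBX homeobox interacting protein 1 (0.984) and gelsolin (0.979), and to SLC39A14 phosphatidylinositol-4-phosphate 5-kinase type 1 alpha (0.984) and the transcription factor MAFK (0.978). BIN1 was closest to actin related protein 2/3 complex subunit 5 like (0.980) and the proteasome ATPase 3 (0.976), MKNK2 to trafficking kinesin protein 1 (0.967) and oxysterol binding protein like 5 (0.966). RPS6KB1 was closest to ubiquitin specific peptidase 38 (0.967) and ZFP91 (0.966), CASP2 to the RNA-binding RBMS2 (0.927) and nucleoporin 43 (0.921), and CASP9 to ARHGEF25 (0.910) and MAST1 (0.907). All are correlations over the same 12 libraries.

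The genes that act with the targets were examined in 9 lists of 133 genes, of which 125 were tested. With siSRSF1-2, 28 passed higher and 22 lower, beside 14.0% and 12.8% of all tested genes. Among MNK, S6K and mTORC1 genes, 6 of 20 rose and 1 fell. TSC1, an mTORC1 inhibitor, rose by 0.67 on the log2 scale. Of 11 caspase and apoptosome genes 2 rose and 3 fell, with cytochrome c (CYCS) at −0.35. In Rac signaling 8 of 17 rose and 3 fell, with WASF2, an effector of actin assembly, at 0.50 and the RAC1 paralog RAC3 at −1.84. Of the 8 exocyst genes 2 rose, EXOC6B (0.56) and EXOC4 (0.34). Among CD44 and MST1R partners 1 of 10 rose and 4 fell, including the CD44-cleaving protease MMP14 (−1.35) and the hyaluronan receptor HMMR (−0.93). In zinc and metal transport 2 of 20 rose and 4 fell, the largest decreases being those of the metallothioneins MT1X (−2.63) and MT2A (−1.32). In membrane curvature 3 of 9 rose and 2 fell, with SYNJ1 at 0.57 and DNM1 at −0.91. Among other reported SRSF1 splicing targets 4 of 16 rose and 2 fell, with CAMK2D at 0.64 and cyclin D1 (CCND1) at −1.55. Of 14 exon-choice regulators none rose and 3 fell, including HNRNPM (−0.82) and HNRNPA2B1 (−0.91). The limma adjusted p of these named genes lay between 0.00122 and 0.0424. With near-identical libraries averaged, 0 of the 125 and 0 of all tested genes passed. Without blank replicate 1, 90 of the 125 passed (background 52.2%), and without any other single library 19 to 32 did (background 10.4% to 18.4%). With 1 fit over all 4 groups 9 of the 125 passed (background 3.76%), and with library weights 96 did (54.6%).

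With siSRSF1-3, 4 of the 125 genes passed, all lower: CCND1 (−2.46, limma adjusted p 0.0184), VAV2, an exchange factor that activates RAC1 (−1.24, 0.0426), MSN, moesin, which links CD44 to actin (−1.85, 0.0453) and MMP14 (−1.45, 0.0483). The background was 0.935% lower and 0.342% higher. With a replicate block, with the same FPKM sum, with near-identical libraries averaged, or without blank replicate 2 or 3 or siSRSF1-3 replicate 2, 0 passed. Without blank replicate 1 or siSRSF1-3 replicate 1 only CCND1 passed, and without siSRSF1-3 replicate 3 there were 49 (background 35.9%). With pseudocount 1 there were 7 (background 2.5%) and by voom 11 (3.79%). With 1 fit over all 4 groups there were 45 (27.8%) and with library weights 98 (76.7%). APAF1, the scaffold that activates CASP9, was at 0.373 FPKM with siSRSF1-3 against 1.82 in blank, with a log2 fold change of −2.22 and a limma adjusted p of 0.0659. EIF4EBP1, a translation repressor under mTORC1, was at 557 FPKM against 183 (1.44, limma adjusted p 0.116). The siSRSF1-3 libraries spanned 251 to 868 FPKM for EIF4EBP1 and 0.142 to 0.734 FPKM for APAF1. EIF4EBP1 has 1073 bases, in a length class with medians of 0.51 and 0.40 in siSRSF1-3 replicates 1 and 2. APAF1 has 7908 bases, in the class with −0.38 and −0.32. The fit with the length trend removed also covered APAF1 and EIF4EBP1, but its values for them are not reported here. With OE-LINC01134 the only gene of the lists to pass was SRPK1, a kinase of SR proteins, at 11.5 FPKM against 19.1 in blank (−0.74, limma adjusted p 0.0445), where 0.730% of all tested genes passed lower, and 0 genes of the lists passed with no filter on low values, without a mean-variance trend, with a replicate block, with near-identical libraries averaged, or without blank replicate 2 or 3 or OE-LINC01134 replicate 1 or 3. Without blank replicate 1 there were 28 (background 13.9%) and without OE-LINC01134 replicate 2 there were 36 (background 25.5%). By voom 9 passed with OE-LINC01134 (background 3.21%), with 1 fit over all 4 groups 15 (6.68%) and with library weights 87 (66.2%). Between siSRSF1-3 and siSRSF1-2 no gene of the lists passed (background 0.0855%), and 63 were under an unadjusted p of 0.05 (background 42.1%). By voom 1 passed (background 0.77%), with 1 fit over all 4 groups 49 did (32.3%), and with library weights 117 did (86.2%). Without siSRSF1-3 replicate 3 there were 85 (background 61.2%), and without any other single library of this comparison 0.

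**Figure D4:**
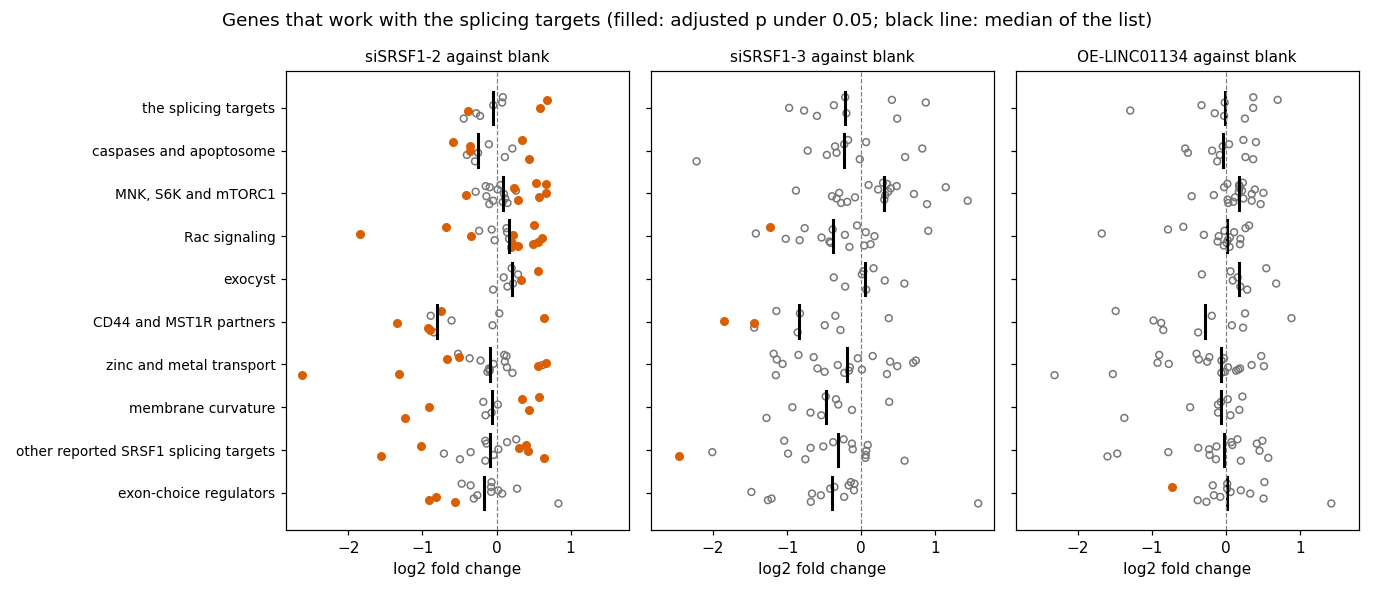
Log2 fold change (x axis) of the 9 tested targets and of the 125 tested genes of 9 lists (rows), for the 3 comparisons with blank (panels); each circle is a gene, filled where the adjusted p was under 0.05, and the black line is the median of the list. With siSRSF1-2, 28 genes of the lists passed higher and 22 lower; 4 passed with siSRSF1-3 and 1 with OE-LINC01134.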

How the data were processed

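RNA of 12 U2OS libraries was sequenced as 150-base pairs by the authors, who deposited FPKM per gene. The sources used here differ on the library kit (SMARTer in the labels, NEBNext in the methods of the study). Transient transfection is described for HOS, another osteosarcoma line. The submitters' notes name a mouse build, which human gene identifiers contradict, and an aligner is not given in the sources used here. Multiplied by gene length, 100% of the FPKM were whole multiples of 1 read's worth in their library (tolerance 0.001 reads), which returned reads per gene. The FPKM carried library sizes of 0.712 to 1.09 times the library's own read total. Groups came from the labels, and column names were matched to them. After addition of 0.1 and log2 transformation, FPKM went into limma 3.58.1 (R 4.3.3, lmFit and eBayes with a mean-variance trend) on the 3 + 3 libraries of each comparison, over 17538 genes with a mean of at least 0.5 FPKM, with Benjamini-Hochberg adjustment over all of them. The fold change scale understates changes of low genes. The fit was tested on simulated data. Intervals cover 95%. Replicate numbers did not pair the libraries (correlation of deviations −0.0815 to 0.0420, but −0.0529, 0.191 and 0.212 for replicates 1 to 3 of siSRSF1-3 with OE-LINC01134). Alternatives were other pseudocounts (1, 0.01), filters, scalings, fits, the replicate number as a block, and leaving out single libraries. Those that removed a length trend (loess, span 0.5) or joined averaging with 1 fit were chosen after seeing the data.

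The members and lists were chosen with earlier results of these data known. Named genes were all targets and SRSF1, and, by rule, the 2 genes per list with the smallest adjusted p in each comparison with blank, the 2 genes most like each target, and overlapping genes of at least 0.5 FPKM. For siSRSF1-3 and OE-LINC01134 the text names those that passed, and APAF1 and EIF4EBP1 were picked from the rule's genes after their values were seen. Some genes that the rule names are not reported here. Sequences and splicing were not analysed here.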

Additional observations from a re-analysis of the deposited data

Results flagged for a closer look

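BIN1 lay on opposite sides of blank in 2 treated groups. Its mean FPKM minus the blank mean was −4.38 with siSRSF1-2 and 3.29 with OE-LINC01134, and every library of the former was below the blank mean and every library of the latter above it. The difference between these effects was not tested. The 3 OE-LINC01134 libraries, at 16.3, 25.1 and 16.4 FPKM, include 2 that exceed the blank mean of 15.96 FPKM by little and lie within the blank range.

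SRSF1 likewise differed between the siRNAs and OE-LINC01134. Its mean FPKM minus the blank mean was −18.1 with siSRSF1-2, −19.4 with siSRSF1-3 and 5.18 with OE-LINC01134, with all libraries of a group on the same side. The OE-LINC01134 mean exceeded that of siSRSF1-2 by 23.2 FPKM and that of siSRSF1-3 by 24.6 FPKM. An exact two-sided permutation test gave p 0.1 for each, the smallest that 3 against 3 libraries allow. SRSF1 is the gene that both siRNAs target, and the blank libraries ranged from 19.8 to 35.9 FPKM around their mean of 25.4.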

How the results depend on the processing

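The number of targets passing with siSRSF1-2 was 3. It was 0 with an absolute log2 fold change over 1 in addition, 5 at an unadjusted p, 1 with no filter on low values or 1 fit over all 4 groups, 6 with library weights (54.6% of all tested genes), 0 with near-identical libraries averaged (in its own fit or over all 4 groups), and 1 to 6 without single libraries (6 without blank replicate 1, where 52.2% of all tested genes passed, 1 without blank replicate 2 or any siSRSF1-2 replicate, where 10.4% to 18.4% did). With siSRSF1-2, 40.3% of all tested genes passed at an unadjusted p and 3.76% with 1 fit over all 4 groups. The number of targets passing was 0 with siSRSF1-3, OE-LINC01134 and siSRSF1-3 against siSRSF1-2. There it was 2, 3 and 5 at an unadjusted p (28.8%, 26.3% and 42.1% of all tested genes). With 1 fit over all 4 groups it was 1, 2 and 3 (27.8%, 6.68% and 32.3% of all tested genes). It was 8, 7 and 9 with library weights (76.7%, 66.2% and 86.2% of all tested genes). Without single libraries it was 0 to 4, 0 to 4 and 0 to 7. The high counts came without siSRSF1-3 replicate 3 (4 and 7, beside 35.9% and 61.2% of all tested genes) and without OE-LINC01134 replicate 2 (4, beside 25.5%). The cause was not tested. Leaving a library out leaves 2 in its group, and averaging leaves 1 siSRSF1-2 value, assumed to vary like the other groups. Target calls also moved in settings not listed above, counted over the 4 comparisons with the sign kept. Voom (with siSRSF1-2), the filter at a mean of 1 FPKM and removal of the length trend each added 1. Omitting the mean-variance trend lost 1, the own read total added 1 and lost 1, and equal FPKM sums added 2 and lost 1. The losses were with siSRSF1-2, where 24.8%, 27.3% and 30% of all tested genes passed, and 28.7% by voom.

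The replicate number as a block left 2 targets with siSRSF1-2, since CD44 did not pass (adjusted p 0.0602), and changed no other call of a target. It moved all genes passing from 2452 higher and 2250 lower to 1246 and 1230. SRSF1 with siSRSF1-2 did not pass with near-identical libraries averaged (−1.86 in both fits). With siSRSF1-3 it passed at an unadjusted p (−2.09), pseudocount 1 (−1.93), 1 fit over all 4 groups (−2.09), library weights (−1.59) and voom (−2.08), and lay between −2.33 (passing, without siSRSF1-3 replicate 3) and −1.72 without single libraries. With OE-LINC01134 it passed with library weights (0.612) and lay between 0.171 and 0.601 (passing, without blank replicate 1) without single libraries.

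These log2 fold changes turned sign under an alternative. With siSRSF1-2, MKNK2 was 0.0874 at the same FPKM sum, 0.000864 at its own read total, 0.0428 with library weights and −0.103 to 0.0409 without single libraries. CASP2 was 0.0256 with library weights and −0.456 to 0.0734 without single libraries. With siSRSF1-3, RPS6KB1 was −0.0263 and EXOC4 −0.12 at the same FPKM sum, and SLC39A14 was −0.521 to 0.0961 without single libraries. With OE-LINC01134 at the same FPKM sum, CASP2 was 0.0606 and RAC1 0.0713. CASP2 was 0.176 with library weights and −0.26 to 0.269 without single libraries. RAC1 was 0.0530 with the length trend removed and −0.0734 to 0.0516 without single libraries. Between the siRNAs, CASP9 was −0.479 at the same FPKM sum, −0.219 at its own read total and −0.0314 to 0.13 without single libraries. There SLC39A14 lay between −0.606 and 0.0113 and SRSF1 between −0.608 and 0.0031 without single libraries. The changes of sign on leaving out a library came without blank replicate 1 (MKNK2, CASP2 and RAC1), OE-LINC01134 replicate 1 (RAC1) or 3 (CASP2 and RAC1), and siSRSF1-3 replicate 1 (SLC39A14 and SRSF1) or 2 (CASP9).

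At the same FPKM sum, 70.2% of the genes passing with siSRSF1-2 were higher, against 52.2% as deposited. Over the alternatives the number of all genes passing higher ranged from 0 to 5016 with siSRSF1-2, 0 to 6720 with siSRSF1-3 and 1 to 6575 with OE-LINC01134. FPKM per gene hold no exon use.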
